A study of Mus musculus with 6 samples.

Results

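The microRNAs of 2 genomic clusters known from embryonic stem cells, 5 of the miR-290 cluster and 5 of the miR-302 cluster (miR-367 included), were followed in the adult mouse dentate gyrus. They were picked by name from a TaqMan card with 375 microRNA assays (335 of mouse and 40 of rat) and 6 control assays, and all 10 named assays were present. The card was run on the right dentate gyrus of 6 male C57/Black6J mice aged 6 to 8 weeks. The 3 saline mice received intraperitoneal saline, and the 3 KA-SE mice received repeated low doses of kainic acid, a glutamate receptor agonist, until status epilepticus. Tissue was taken 72 h after the injections, 800 ng of total RNA per mouse was reverse transcribed, and each library is 1 mouse. Only KA-treated animals with prolonged severe seizures entered the study, and kainic acid acts on the whole animal. Each assay is read as a Ct (threshold cycle), the point in the PCR where its signal rises past a set line, so abundant RNAs have a low Ct. A Ct of 40 stands for no amplification, and a Ct below 35 was counted as detection. Without read counts no counting interval applies, and the number of mice limits the precision.

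Clusters of microRNAs are transcribed together as 1 precursor RNA that is cut into hairpins and then into mature strands. Transcripts of the miR-290 and miR-302 clusters are abundant in early embryos and pluripotent cells, where they favour the rapid cell cycle of these cells and hold back differentiation, and both clusters are silenced as cells commit to a lineage. A microRNA pairs with its target mRNAs mainly through its seed, bases 2 to 8 from the 5′ end. Most members of both clusters carry closely related seeds and so can pair with many of the same mRNAs.

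The mature sequences are shown because many members are told apart by few bases and grouped by their seeds. RefSeq (GRCm38.p6) held a mature strand for 8 of the 10 members by name, and the names without an arm were read as the 3p strand. No entry was found by name for miR-292-3p and miR-302a, so their seeds were not read. The seed is in capitals.
miR-291a-3p: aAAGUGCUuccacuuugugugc
miR-294: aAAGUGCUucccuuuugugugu
miR-295: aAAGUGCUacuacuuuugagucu
miR-302b: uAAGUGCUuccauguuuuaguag
miR-302d: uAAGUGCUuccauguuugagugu
miR-302c: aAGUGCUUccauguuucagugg
miR-293: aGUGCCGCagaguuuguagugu
miR-367: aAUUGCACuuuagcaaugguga
Of the 8 members with a sequence, 5 share the seed AAGUGCU, 3 of the miR-290 cluster and 2 of the miR-302 cluster. They are the 5 strands that carry it among 1679 in the RefSeq table used, in which miR-302a was not found. The strand of miR-302c holds the same letters starting 1 base earlier. miR-293 and miR-367 have seeds of their own among these 8 members. miR-291a-3p and miR-294 are 3 base edits apart (substitutions, insertions or deletions), as is each pair of miR-302b, miR-302c and miR-302d. Whether the assays read each other's targets was not tested.
The miR-290 members lie on the forward strand of chromosome 7, with miR-291a-3p at chr7:3218968-3218989, miR-293 at chr7:3220390-3220411, miR-294 at chr7:3220691-3220712 and miR-295 at chr7:3220815-3220837. Their 7 hairpin genes, from Mir290a to Mir295, span 2216 bases, which overlap the lncRNA gene D7Ertd143e and the span of Nlrp12. The miR-302 members lie on the forward strand of chromosome 3, with miR-302b at chr3:127545275-127545297, miR-302c at chr3:127545406-127545427, miR-302d at chr3:127545665-127545687 and miR-367 at chr3:127545779-127545800. These 5 hairpin genes span 580 bases within Larp7, the gene of an RNA-binding protein of the 7SK complex, and overlap the lncRNA gene Gm51018.

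Most readings of the pluripotency microRNAs came late in this tissue or did not pass the detection limit, in both groups. Of 60 member readings (10 assays in 6 libraries), 33 (55%) were below Ct 35, against 86% of the 1950 readings of the 325 other mouse microRNA assays. Only 6 member readings (10%) were below Ct 30, against 79.3% of the other readings. Where detected, the members had a median Ct of 32.03, with a range of 22.9 to 34.9, and the other mouse assays had a median of 23.7.
Detection in all 6 libraries was limited to 3 members, mmu-miR-292-3p, mmu-miR-294 and mmu-miR-302d. A further 6 were below Ct 35 in some libraries, mmu-miR-291a-3p, mmu-miR-293, mmu-miR-302a, mmu-miR-302b, mmu-miR-302c and mmu-miR-367, and mmu-miR-295 was below it in none. Over all 375 microRNA assays, 74.9% were below Ct 35 in every library, 16% in some and 9.07% in none.
In the saline replicates 1, 2 and 3, 8, 6 and 4 of the 10 members were below Ct 35, and in the KA-SE replicates 6, 4 and 5 were. The counts of the groups overlap. The other mouse assays were detected at 81.8% to 88.6% per library, with the lowest share in saline replicate 2. Members of the miR-290 cluster gave 9 of 15 readings below Ct 35 in saline and 6 of 15 in KA-SE mice, and members of the miR-302 cluster gave 9 of 15 in each group.

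**Figure D1:**
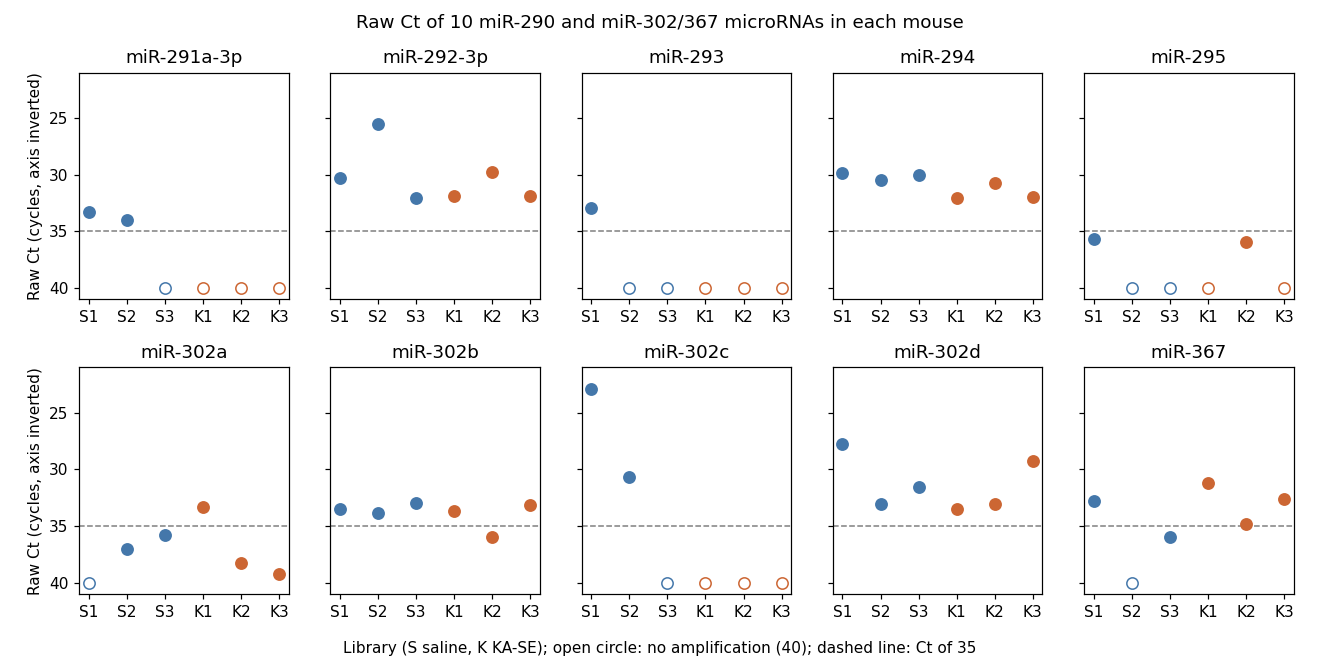
Raw Ct (cycles, inverted so that more RNA is higher) of the 10 cluster members in each library, with saline replicates S1 to S3 in blue and KA-SE replicates K1 to K3 in orange. Open circles at 40 are readings without amplification and the dashed line is the detection limit of 35. miR-294 keeps within 29.83 to 32.03, while miR-302c runs from 22.9 to no amplification.

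Facts of the libraries bear on these readings. The negative control of the card, the plant microRNA ath-miR159a, gave a Ct of 21.7 in saline replicate 2, 19.5 in KA-SE replicate 2 and 18.8 in KA-SE replicate 3, and did not amplify in the other 3 libraries. These Ct values are earlier than all 33 detected member readings. Saline replicate 2 also stood apart in its microRNAs, whose mean level relative to the small nuclear RNA U6 was -11.8 cycles, against -10.2 to -9.96 cycles in the other 5 libraries. The Ct of U6 itself, to which the members are related, ranged from 12.9 to 13.9 in saline and from 12.8 to 13.6 in KA-SE mice, and the groups overlapped. The neural microRNAs miR-9, miR-124, miR-137 and miR-128a, which check the tissue, were detected in all libraries at Ct 13.97 to 22.999. The part of the plant control signal and of the library shift in the member readings was not tested.

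miR-294, a main microRNA of the miR-290 cluster in mouse embryonic stem cells, was the member read most evenly and the 1 member whose groups did not overlap. Its Ct was 29.83, 30.49 and 30.04 in saline replicates 1, 2 and 3, and 32.03, 30.73 and 31.99 in KA-SE replicates 1, 2 and 3. Each KA-SE mouse thus gave a later Ct than each saline mouse. Relative to U6 (level, Ct of U6 minus Ct of the microRNA, a log2 value where product doubles with every cycle), the 3 saline mice averaged -16.7 ± 0.18 (SD, n = 3) and the 3 KA-SE mice -18.4 ± 1.1 (SD, n = 3). The gap between the lowest saline level, -16.9, and the highest KA-SE level, -17.2, was 0.225 cycles. The log2 fold change after KA-SE was -1.62 (standard error 0.60), which did not pass the test over all 281 microRNAs below Ct 35 in every library (limma, adjusted p = 0.556, unadjusted p = 0.0293).
Of the 281 microRNAs tested, 1.42% were separated downward in this way and 19.2% upward, and 0.356% had an unadjusted p under 0.05 in the downward direction, which is miR-294 alone. Calls, which required a 1.5-fold change beside an adjusted p under 0.05, came to 0 (0%) in limma and in the methods' t-test. Without adjustment, p was under 0.05 for 7 microRNAs upward and 1 downward in limma. The other test gave 6 upward and 0 downward. Both counts take U6 as the reference, and there the median log2 fold change was 0.62. With the mean of all microRNAs as the reference, limma gave 9 upward and 16 downward, miR-294 among them (unadjusted p = 0.0148). When limma used trend and robust variances with U6, it gave 3 upward and 0 downward (miR-294, unadjusted p = 0.0892). Groups that are separated stay so when a library is removed, so only the size of the change can move. With each library left out in turn, the log2 fold change of miR-294 ran from -2.22 without KA-SE replicate 2 to -1.18 without KA-SE replicate 1. Relative to the mean of all microRNAs it was -2.28 (limma, adjusted p = 0.464), where 12.1% of the microRNAs tested were separated downward. Without saline replicate 2 it was -1.68 over that reference (limma, adjusted p = 0.444) and -1.57 over U6. In saline replicate 2 the level of miR-294, -16.6, was not lower than in the other saline replicates, although the mean microRNA of that library was. The raw Ct of miR-294 there, 30.49, was the latest of the saline mice, as was that of U6, 13.9. Without the 3 libraries with plant control signal (2 saline mice against 1 KA-SE mouse), the log2 fold change of miR-294 was -2.46, given with no test.
The 2 microRNAs whose levels over the 6 libraries were most like those of miR-294 were miR-687 and miR-770-3p, with root mean square differences of 0.409 and 0.781 cycles after centring, against a median of 1.44 cycles over the 278 microRNAs compared. For miR-687, saline replicates 1, 2 and 3 had levels of -9.07, -8.71 and -7.71, and KA-SE replicates 1, 2 and 3 of -10.7, -8.69 and -9.85, so its groups overlapped.

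miR-292-3p, processed from the same precursor RNA as miR-294, gave the most variable reading of any microRNA tested. Its Ct was 30.3, 25.6 and 32.1 in saline replicates 1, 2 and 3, and 31.9, 29.7 and 31.9 in KA-SE replicates 1, 2 and 3. Saline replicate 2 was the high library, ahead of every other, although most microRNAs came late in it. Saline mice averaged a level over U6 of -15.9 ± 3.7 (SD, n = 3) and KA-SE mice one of -17.9 ± 1.6 (SD, n = 3), and the groups overlapped. The log2 fold change of -2.03 (standard error 1.77, limma, adjusted p = 0.610) became 0.091 (adjusted p = 0.967) without saline replicate 2, and -1.06, given with no test, without the 3 libraries with plant control signal.
miR-291a-3p, which differs from miR-294 by few bases, was detected in saline replicates 1 and 2 only, at Ct 33.3 and 34.0. It did not amplify in saline replicate 3 or in any KA-SE library. miR-293 was detected in saline replicate 1 alone, at Ct 33.0, and did not amplify in the other 5 libraries. miR-295 amplified beyond the limit in saline replicate 1 (Ct 35.7) and KA-SE replicate 2 (Ct 36.0) and in no other library.
The card holds assays for 2 further RNAs of the cluster. miR-290-3p did not amplify in any library, and miR-291b-5p gave a Ct of 30.2 in saline replicate 1 only. Saline replicate 1 was thus the 1 library with signal from miR-293 and from miR-291b-5p, and 4 of the 5 miR-290 members were below Ct 35 in it. miR-291a-3p and miR-293, with miR-302c of the other cluster, were 3 of the 9 microRNA assays (2.40% of 375) detected in at least 1 saline and no KA-SE library. The reverse held for 2.93% of the assays and for 1 member, miR-302a.

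miR-302d was the member of the miR-302 cluster detected in all 6 libraries. Its Ct was 27.8, 33.1 and 31.5 in saline replicates 1, 2 and 3, and 33.5, 33.1 and 29.3 in KA-SE replicates 1, 2 and 3. One library of each group, saline replicate 1 and KA-SE replicate 3, read early, and the groups overlapped. Its mean level over U6 was -17.4 ± 2.3 in saline (SD, n = 3), against -18.7 ± 2.5 after KA-SE (SD, n = 3). The log2 fold change of -1.31 (standard error 1.49, limma, adjusted p = 0.646) was -0.045 once saline replicate 1 was left out and -2.71 once KA-SE replicate 3 was. With the 3 libraries that had plant control signal left out it was -4.22, from 2 saline mice (levels of -14.9 and -18.1) against 1 KA-SE mouse (-20.7). The spread of those 2 saline mice gave a standard error of 2.83, whereas limma used 1 spread for all microRNAs there, with a standard error of 0.89, so no test is read from that value.
miR-302b was the steadiest member of its cluster, close to the limit. Saline replicates 1, 2 and 3 had a Ct of 33.5, 33.8 and 32.9, and KA-SE replicates 1, 2 and 3 of 33.7, 36.0 and 33.2. KA-SE replicate 2 missed the limit by less than 1 cycle, so miR-302b is among the 4 assays (1.07% of 375) below Ct 35 in all saline libraries but not in all KA-SE libraries. With a later Ct set to 35 its log2 fold change was -0.69 (standard error 0.58, limma, adjusted p = 0.603), with the Ct as read -1.003 (standard error 0.75, adjusted p = 0.638), and without that library -0.33 (standard error 0.69, adjusted p = 0.905).
miR-367, the last hairpin of its cluster and, like miR-293, a member with a seed of its own, read the other way. It was detected in all 3 KA-SE mice, at Ct 31.2, 34.9 and 32.7, and in saline replicate 1 at 32.8. In saline replicate 3 its Ct was 36.0, and saline replicate 2 gave no amplification. Among the 375 microRNA assays 5.60% were below Ct 35 in all KA-SE and not in all saline libraries. With the same limit of 35, the log2 fold change of miR-367 was 1.22 (standard error 0.86, limma, adjusted p = 0.586), a value that depends on where the limit is set.
miR-302a was below Ct 35 in KA-SE replicate 1 alone, at 33.3. It amplified late, at Ct 35.8 to 39.3, in 4 libraries and not at all in saline replicate 1. miR-302c gave both the earliest member reading and the widest spread. Its Ct was 22.9 in saline replicate 1 and 30.7 in saline replicate 2, and the 4 other libraries did not amplify. The saline mice alone thus ranged from the earliest member reading to none, and no mean or fold change is given for miR-302c.

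Saline replicate 1 held the earliest Ct of 6 of the 10 members. These were miR-291a-3p, miR-293, miR-294 and miR-295, which are 4 of the 5 miR-290 members, and miR-302c and miR-302d. For miR-295 that Ct, 35.7, was beyond the detection limit. Of the other mouse assays that amplified in any library, 18.9% were earliest in saline replicate 1 and 71.2% in KA-SE replicate 1. The remaining 4 members were earliest elsewhere, and miR-302a gave no signal in saline replicate 1. In KA-SE replicate 1, miR-302a and miR-367 had their earliest Ct while miR-302d had its latest. miR-292-3p was earliest in saline replicate 2, where 0% of the other assays were, and miR-302b in saline replicate 3. The members' mean Ct cannot be ranked firmly. Over the 6 libraries miR-292-3p, miR-294 and miR-302d averaged 30.2, 30.9 and 31.4 cycles, differences smaller than the spread between mice for miR-292-3p and miR-302d, and each assay has its own efficiency.

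**Figure D2:**
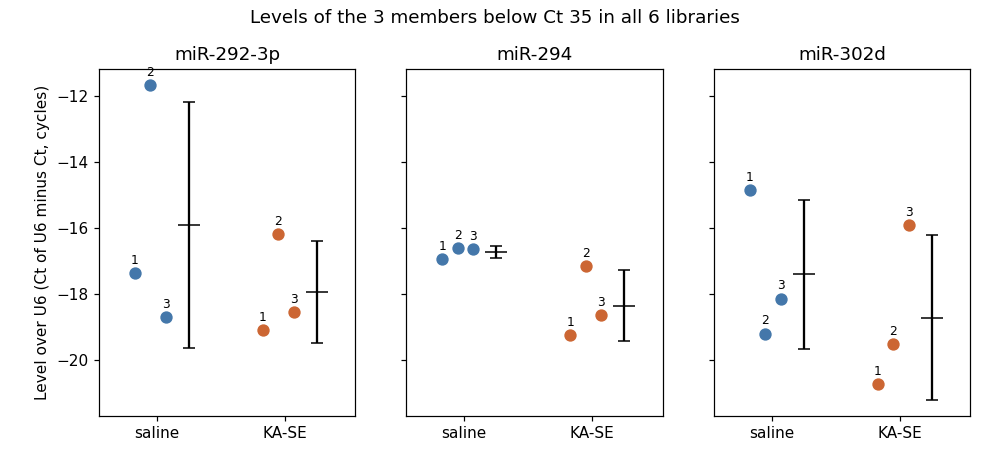
Level over U6 (Ct of U6 minus Ct of the microRNA, cycles) of the 3 members detected in every library, with replicate numbers beside the points and the mean ± SD of 3 mice as black bars. For miR-294 the saline points lie above the KA-SE points, from -16.9 to -16.6 against -19.2 to -17.2, and the groups overlap for miR-292-3p and miR-302d.

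Spread between mice set miR-294 apart from the other 2 members. The SD within groups of the level over U6 was 2.86 cycles for miR-292-3p, the largest among the 281 microRNAs tested, and 2.38 cycles for miR-302d, which 2 microRNAs exceeded. For miR-294 it was 0.770 cycles, against a median of 0.748 cycles over all 281. Late assays varied more. Among the 25 microRNAs tested with a mean Ct of 29 or later, the median SD was 1.24 cycles, and 8 had a smaller SD than miR-294.
The log2 fold change was below 0 for all 3 tested members (median -1.62), and for 12.8% of the 281 microRNAs, whose median was 0.62. Of the 25 late microRNAs, the 3 members included, 7 were negative, and their median was 0.49. Without saline replicate 2, 1 of the 3 members was positive, and 62.8% of the microRNAs tested were. These 3 passed the filter and the other 7 did not, so the count says nothing of the clusters as a whole.

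**Figure D3:**
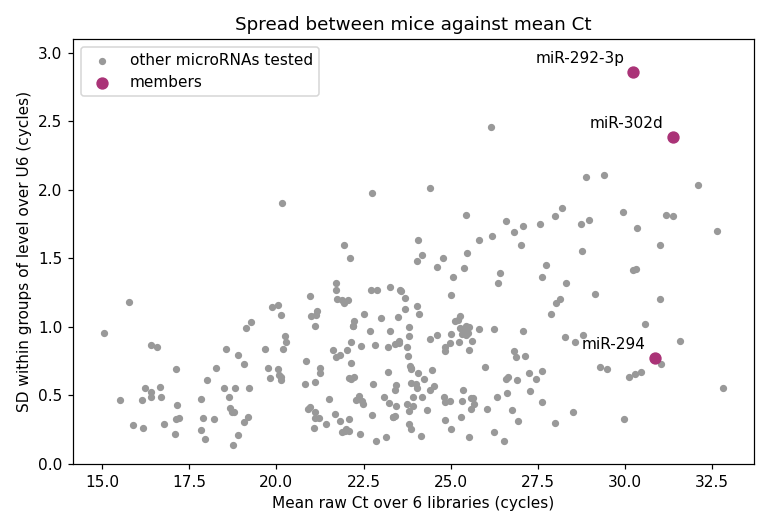
SD within groups of the level over U6 (cycles) against mean raw Ct (cycles) for the 281 microRNAs detected in all 6 libraries, 1 point each, with the 3 cluster members in purple. miR-292-3p has the largest SD, 2.86 cycles, and miR-294, at 0.770 cycles, lies among the steadier late assays.

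MicroRNAs of other genes that carry the related seed of miR-17 were read earlier than nearly all readings of the cluster members. The exceptions were miR-302c in saline replicate 1 (Ct 22.9) and miR-292-3p in saline replicate 2 (Ct 25.6), which fell within their range. miR-17, miR-20a, miR-20b, miR-93, miR-106a and miR-106b, from miR-17 and its paralogous clusters, promote proliferation in many tissues, and they carry a seed that is shifted by 1 base against that of the miR-302 and miR-290 members, shown here with 1 example.
miR-17: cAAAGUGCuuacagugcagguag
All 6 were detected in every library, at Ct 19.4 to 26.0. None passed the test, the log2 fold change was above 0 in all 6 (median 0.67, beside 0.62 for all microRNAs tested), and 2 of 6 were separated upward, miR-20a and miR-106b, beside the 19.2% of all microRNAs. Saline replicate 2 was the latest library for all 6, and without it their median was 0.13, as was the median of all microRNAs tested. For miR-20a the saline replicates read 20.3, 23.8 and 20.6 and the KA-SE replicates 19.96, 20.7 and 20.5 cycles, so the separation over U6 rests on levels that overlap in raw Ct.
The seed of miR-367 is shared by miR-25, miR-32, miR-92a and miR-363 on this card, with miR-92a shown as the earliest of them.
miR-92a: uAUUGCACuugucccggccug
Their Ct values ran from 20.8 to 34.9, and all 4 were detected in every library. In saline mice miR-92a was read at 21.3 ± 0.54 cycles (SD, n = 3), and in KA-SE mice at 20.9 ± 0.13 (SD, n = 3), and miR-363 came latest, at 32.3 ± 1.4 (SD, n = 3) and 33.0 ± 2.6 (SD, n = 3). The log2 fold change was above 0 for 3 of the 4, miR-363 had -0.83 (standard error 1.10), and none passed the test. In whole tissue, fewer cells of a type and less RNA per cell cannot be told apart, for these microRNAs and for the cluster members.

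**Figure D4:**
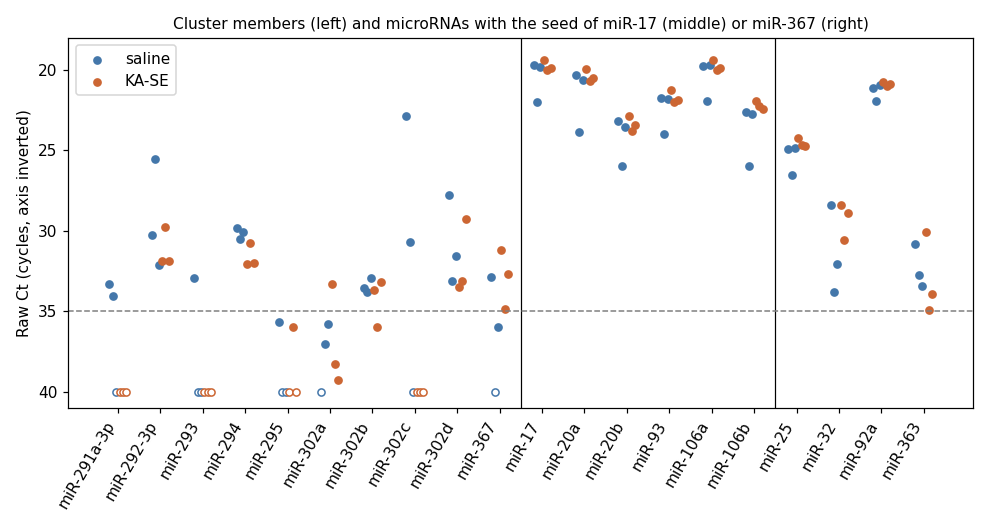
Raw Ct (cycles, inverted) in each library, saline in blue and KA-SE in orange, of the 10 cluster members, of 6 microRNAs with the seed of miR-17 and of 4 with the seed of miR-367. Open circles at 40 are readings without amplification, the dashed line is the limit of 35, and all readings of the miR-17 group lie between 19.4 and 26.0.

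Assays for microRNAs known from other tissues were also detected in some libraries and missed in others. Of 8 assays for testis and germ cell microRNAs, 2 were below Ct 35 in all libraries and 4 in none. The testis microRNA miR-881 had a Ct of 22.4 in KA-SE replicate 1 and 32.3 in saline replicate 1 and did not amplify elsewhere. Of 6 assays for skeletal and cardiac muscle microRNAs 4 were detected throughout, as were 2 of 3 for the pancreas, and the liver microRNA miR-122 was detected throughout at Ct 24.8 to 31.1. Among markers of blood and vessels, miR-126-3p and miR-126-5p of the endothelium were read at Ct 16.4 to 22.7, and miR-451 of erythrocytes was detected throughout while miR-486 was missed in 3 libraries. The 4 choroid plexus and ependyma microRNAs were detected throughout, at Ct 16.2 to 31.0. Of these 26 assays 16 were below Ct 35 in all libraries and entered the test, and none of the 16 passed it. The other 10 were not tested between groups, and their part in the member readings was not tested.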

How the data were processed

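MicroRNA levels of 3 saline and 3 KA-SE mice (1 TaqMan card each) were grouped from the sample labels. The authors deposited raw Ct, Ct relative to a reference named as RNU6B in the methods, and fold changes of each KA-SE library, their own comparison, which were not used. The sources used here do not give the instrument settings. The card lists no RNU6B, and MammU6 was used. MicroRNAs below Ct 35 in all libraries of a fit (281 of 375 with 6 libraries) entered a limma fit (version 3.58.1, R 4.3.3). P-values were adjusted over all of them by Benjamini-Hochberg, and calls needed a value under 0.05 with a change of at least 1.5-fold. The fit was checked on simulated data, with the pass mark set at a spread smaller than the median here. That check does not show what the fit can find at the spread of the members. All member assays, U6 and the listed microRNAs were named by rule, and likeness took the 2 microRNAs with the smallest root mean square difference. Members and lists were chosen with earlier results of these data known. Alternatives were other references, detection limits, tests, a replicate block and left-out libraries. Leaving out the 3 libraries with plant control signal, and saline replicate 2 together with another reference, was added after seeing the data. Sequences and positions come from RefSeq on GRCm38.p6, as the deposited tables name no build.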

Additional observations from a re-analysis of the deposited data

Results flagged for a closer look

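The plant control ath-miR159a, for which a mouse sample holds no target, is outside the comparison of the groups and gave an early signal in some libraries. Its Ct was 21.7 in saline replicate 2, 19.5 in KA-SE replicate 2 and 18.8 in KA-SE replicate 3, against no amplification in the other 3 libraries. miR-292-3p had its earliest Ct in each group, 25.6 and 29.7, in saline replicate 2 and KA-SE replicate 2. In KA-SE replicate 3, the library with the earliest plant signal, it read 31.9. miR-302d read 29.3 in KA-SE replicate 3, and its latest saline Ct, 33.1, was in saline replicate 2. The earliest Ct of miR-302d, 27.8, and of miR-302c, 22.9, came from saline replicate 1, in which the plant control did not amplify. Whether the plant signal and the member readings are linked was not tested.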

How the results depend on the processing

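Over the alternatives that tested it with more than 1 mouse per group, miR-294 kept its negative direction and its side of the threshold. Its log2 fold change there ran from -2.28 to -1.18, and it was -2.46, given with no test, from 2 saline mice against 1 KA-SE mouse. The direction of miR-302d was negative in each alternative that held it, and that of miR-292-3p turned to 0.091 without saline replicate 2. Leaving out 1 library gave log2 fold changes between -3.42 and 0.091 for miR-292-3p and between -2.71 and -0.045 for miR-302d. The number of microRNAs called, 0, became 1 with late Ct set to 35, 1 with no filter on Ct, and 0 to 1 with 1 library left out, and no member was among them. The count of tested members whose groups did not overlap, 1, ran from 1 to 2 with 1 library left out, the second being miR-302d without KA-SE replicate 3. Removing a library cannot lower this count. Of the member readings, 60% in saline and 50% in KA-SE mice were below Ct 35. These shares were 30% and 23.3% below Ct 32, 13.3% and 6.67% below Ct 30, and ran from 50% to 70% and from 45.0% to 55% with 1 library left out. Without the 3 libraries in which the plant control amplified, which leaves 2 saline mice and 1 KA-SE mouse, limma called 6 microRNAs, miR-302d (log2 fold change -4.22) among them. That fit has 1 residual degree of freedom and gave every microRNA the same spread (standard error 0.89, against 2.83 from the saline mice of miR-302d itself), so the call is not read as a test of miR-302d. The groups did not overlap there for the 3 members or for miR-302b, which that fit also tested, with 18.9% of 297 microRNAs separated downward from the lone KA-SE mouse. At Ct below 32 in all libraries no member was left to test. Replicate numbers mark separate mice and were not taken as pairs. Same-numbered libraries deviated together with correlations of 0.19, 0.24 and 0.05, and libraries of different numbers were not compared in this way. With the replicate number as a block, limma also used 1 spread for all microRNAs, called 0 and gave an adjusted p of 0.304 for miR-292-3p, 0.407 for miR-294 and 0.558 for miR-302d, with log2 fold changes of -2.03, -1.62 and -1.31 and a median of -1.62. In the authors' normalized table none of the 6 readings of miR-292-3p or miR-294 equal, within 0.0015 cycles, the raw Ct minus the difference most common among the assays of that library, all 6 of miR-302d do, and the log2 fold changes were -3.07, -1.30 and -1.39. Readings near Ct 35, or without amplification in some libraries, limit what can be said of the other 7 members.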
